A study of Mus musculus with 6 samples.

Results

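Translation initiation factor genes were followed in the small intestinal epithelium of mice with and without deletion of nuclear receptor corepressors. The set was chosen by name, as every protein-coding gene of the count table whose symbol starts with Eif1 to Eif6, and it held 53 of the 55450 gene identifiers. One eIF2 kinase gene and the Y-linked paralogue of Eif2s3x were left out by the rule. The rule itself uses names and no measured value.

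The knockout mice carried Vil1-Cre-ERT2 together with Ncor1loxP/loxP and floxed alleles of a second corepressor gene. The control mice carried the same floxed alleles without Cre. There were 3 polyA libraries of each genotype, named by number: knockouts 423, 476 and 477, and controls 482, 483 and 486. Per the labels, mice of both genotypes were injected intraperitoneally with tamoxifen, 15 mg per 100 g of body weight for 5 days, at 8 to 9 weeks of age. They were later kept alone in metabolic cages at 22 °C, with day 21 given for the cages in both genotypes. Tamoxifen activates this Cre recombinase, and its villin promoter drives it in the intestinal epithelium. The epithelium was scraped off the opened intestine with a glass slide and its RNA was extracted in bulk, with no section of the small intestine named for a library. Cre was present in the knockouts alone, so the deletion and the transgene cannot be told apart as sources of a difference.

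Translation initiation starts when eIF2, loaded with GTP, brings the initiator tRNA to the small ribosomal subunit, which eIF1, eIF1A, eIF3 and eIF5 hold ready for scanning. The eIF4F complex, made of the cap-binding protein eIF4E, the scaffold eIF4G and the helicase eIF4A, recruits that subunit to the capped end of an mRNA. Among the well-known switches of initiation are kinases that phosphorylate the alpha subunit of eIF2 and so block its recharging by eIF2B, and the 4E-binding proteins, which sequester eIF4E until the kinase mTORC1 phosphorylates them. The epithelium of the small intestine renews itself within days and makes large amounts of digestive enzymes and transporters, which places a high demand on protein synthesis.

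Total counts were between 23476031 and 46835165 per library, so that 3 counts corresponded to 0.0586 to 0.173 CPM (counts scaled to a common library size, with TMM factors that compare libraries on their typical gene). Ncor1, the gene of the corepressor NCoR1, stood at 31.3, 36.4 and 22.5 CPM in the knockouts 423, 476 and 477, against 140, 137 and 99.3 CPM in the controls 482, 483 and 486 (log2 fold change -2.06, SE 0.25, adjusted p = 0.000447). The 6 epithelial markers summed to 7172 to 11791 CPM in knockouts and 11237 to 11961 CPM in controls, with Vil1 lower in the knockouts (-1.20, adjusted p = 0.0105). All 5 erythrocyte markers rose, summing to 35.5 to 543 CPM in knockouts against 7.95 to 22.2 CPM in controls, though 0 of 5 passed without control 482 or 483 and 1 without control 486. Of the crypt and cycling markers 1 of 6 tested rose (Pcna, 1.87), with sums of 150 to 351 CPM in knockouts and 75.2 to 157 CPM in controls. Pcna alone had 104 to 150 CPM in knockouts, and Olfm4 had 189 CPM in knockout 423. Among those that did not pass, Ccnb1 and Olfm4 had 1.37 and 0.67, and Mki67, Top2a and Mcm2 had -0.70, 0.01 and -0.01. Lgr5, which was not tested, averaged 0.0945 CPM in knockouts and 0.686 CPM in controls. Of the leukocyte markers 1 of 4 tested fell (Ptprc, -1.78), with sums of 17.1 to 115 CPM in knockouts against 81.4 to 337 CPM in controls. The 6 mesenchymal markers summed to 8.91 to 41.7 CPM against 9.36 to 33.5 CPM and the 3 endothelial markers to 0.633 to 2.39 CPM against 1.50 to 3.44 CPM, with none called of the 6 mesenchymal and 2 endothelial genes tested (0 and 2 at an unadjusted p under 0.05). No marker of these lists was at 0 in every library. Their part in the results that follow was not tested, and in bulk tissue a change in the mix of cells and a change in RNA per cell cannot be told apart.

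Of the 53 genes 52 passed the filter on low counts, and the remaining one, Eif4e1b, a gene known from oocytes, had 0 counts in every library. Among the 52, 20 rose and 2 fell in the knockouts at an adjusted p under 0.05 (edgeR's quasi-likelihood test with Benjamini-Hochberg adjustment over all 15028 genes tested), and 30 did not pass. Over all genes tested 17.3% rose and 18.3% fell, 35.6% in either direction. The log2 fold change (knockout over control) was positive for 41 of the 52 and negative for 11, with a median of 0.51 against -0.06 over all genes tested. Summed over the members, expression was 6083, 5626 and 5920 CPM in the knockouts 423, 476 and 477, against 3762, 3668 and 4822 CPM in the controls 482, 483 and 486. Each knockout sum lay above each control sum, and control 486 lay closest to the knockouts. Of single genes, 25 were higher in every knockout than in every control and 4 were lower, 29 of 52 in all, against 23.9%, 26.4% and 50.3% of all genes tested. The genes that rose were spread over the complexes: 4 of 5 in the eIF2 group, 3 of 5 in the eIF5, eIF5A, eIF5B and eIF6 group, 6 of 14 eIF3 subunits, 2 of 5 in the eIF1 group, 2 of 5 eIF2B subunits, 2 of 11 in the eIF4F group and 1 of 4 eIF4E binders. None of 3 eIF2 alpha kinases passed (1 had an unadjusted p under 0.05). The number that rose depended on single libraries. Without knockout 423 it was 9 (17.3% of members, against 12.2% of all genes tested), and without knockout 477 it was 8 (15.4% against 10.3%). Without control 482 it was 7 (13.5% against 9.98%) and without control 483 it was 6 (11.5% against 9.91%), so that in these 4 fits the members' share lay much nearer to that of all genes. Scaled by library size alone, the median over all genes tested shifted by -0.44, and 6 members rose (11.5%, against 7.54% of all genes) and 7 fell (13.5%, against 30.3% of all genes). The members' median then lay 0.573 above that of all genes, against 0.565 with TMM.

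**Figure D1:**
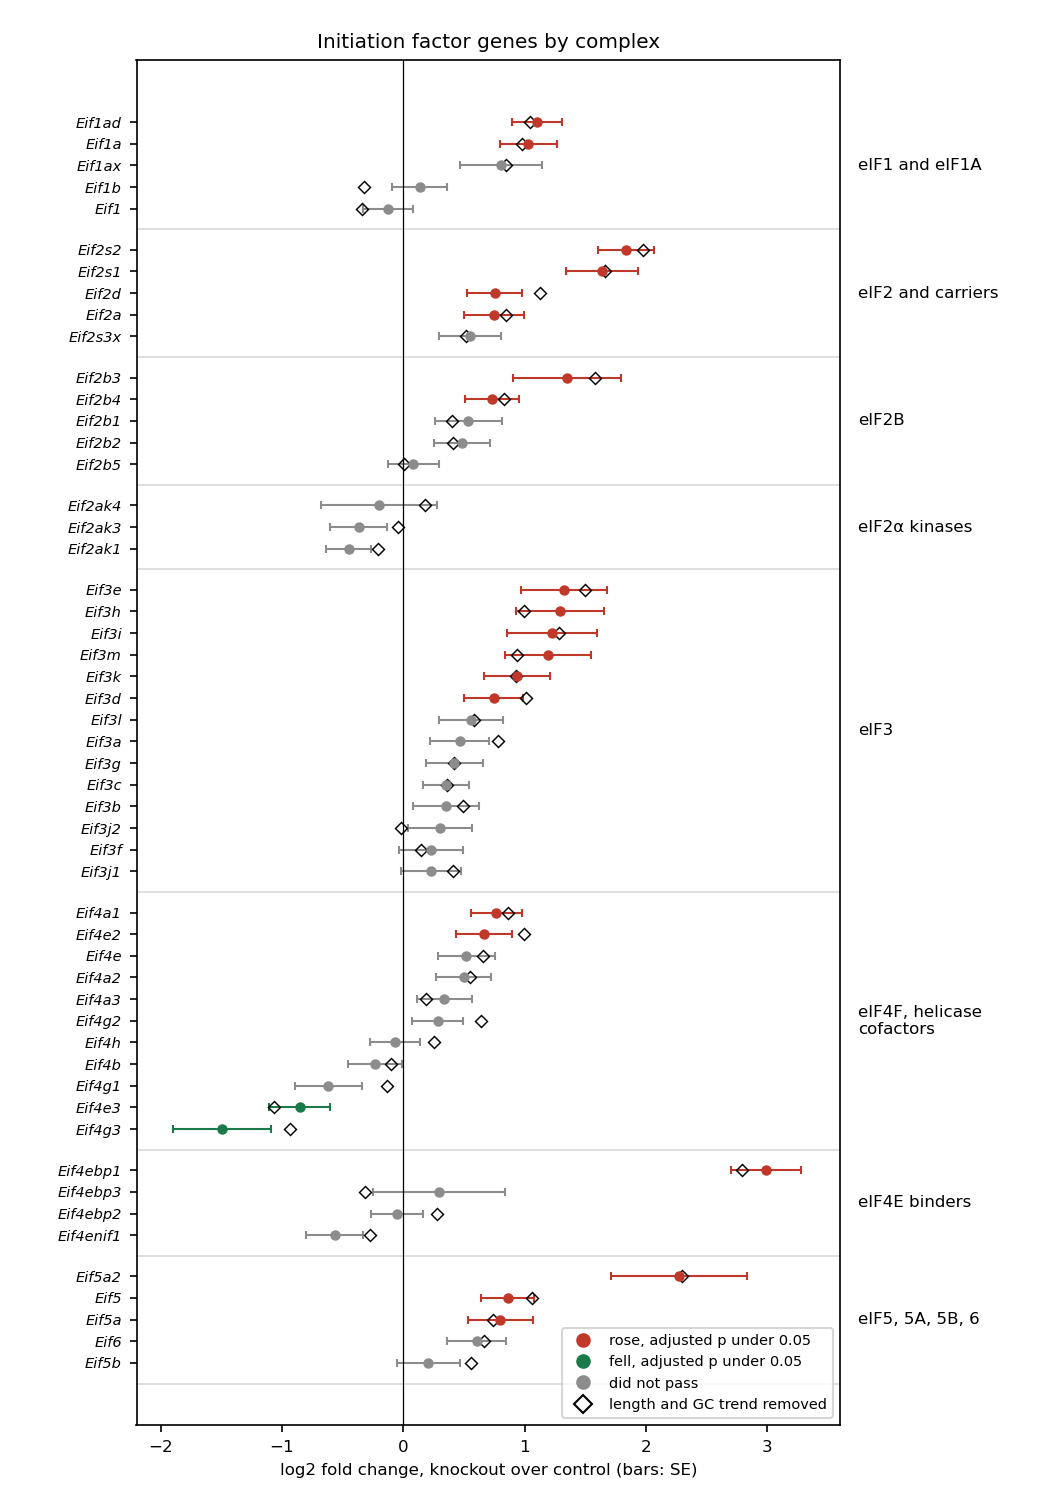
Log2 fold change, knockout over control, of the 52 initiation factor genes tested, by complex, with the standard error as bars and open diamonds for the value after each library's trend with exon length and GC content was removed. Eif4ebp1 stands farthest to the right at 2.99, all 14 eIF3 subunits lie right of 0 (9 with library size alone, and 13 of the diamonds), and the 3 kinases lie left of 0 before the trend was removed.

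Sequence around a start is shown for a few chosen members, and its part in the results was not tested. Promoter windows came from RefSeq (GRCm38.p6) and run from 250 bases before to 50 bases after a start given there. Each is written in the direction of its gene. They are given for both called subunits of eIF2, for Eif1ad and Eif5a2, which rose, and for the scaffolds Eif4g1 and Eif4g3. The gene coordinates given here come from GENCODE M21, and their starts can differ from those of RefSeq. The windows of Eif2s1, Eif4g1 (mm10 chr16:20668313-20692884) and Eif4g3 lie wholly inside the gene by those coordinates. For these genes the sequence before the GENCODE start was not searched. Capitals mark matches to CACGTG (the E-box core bound by MYC and its relatives) or to CCGGAAG (the core bound by ETS factors), which is printed as CTTCCGG where it lies on the opposite strand.
Eif2s1, chr12:78861822-78862121, plus strand: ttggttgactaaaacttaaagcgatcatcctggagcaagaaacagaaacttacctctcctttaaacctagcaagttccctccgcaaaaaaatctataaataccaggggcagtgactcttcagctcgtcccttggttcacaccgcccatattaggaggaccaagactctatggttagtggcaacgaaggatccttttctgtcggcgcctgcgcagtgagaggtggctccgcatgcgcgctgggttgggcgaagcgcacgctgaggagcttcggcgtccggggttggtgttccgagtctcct
Eif2s2, chr2:154892857-154893156, minus strand: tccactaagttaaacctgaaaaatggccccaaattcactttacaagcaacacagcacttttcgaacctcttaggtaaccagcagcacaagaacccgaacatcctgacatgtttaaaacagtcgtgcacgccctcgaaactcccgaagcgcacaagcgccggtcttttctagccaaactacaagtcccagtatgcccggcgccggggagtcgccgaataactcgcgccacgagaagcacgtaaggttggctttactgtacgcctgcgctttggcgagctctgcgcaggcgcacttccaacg
Eif1ad, chr19:5366563-5366862, plus strand: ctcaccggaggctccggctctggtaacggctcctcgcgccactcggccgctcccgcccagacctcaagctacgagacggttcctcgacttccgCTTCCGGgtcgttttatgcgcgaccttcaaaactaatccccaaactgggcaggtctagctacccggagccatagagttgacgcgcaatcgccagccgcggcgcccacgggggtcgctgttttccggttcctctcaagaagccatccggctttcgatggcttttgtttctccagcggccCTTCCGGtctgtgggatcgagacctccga
Eif5a2, chr3:28781027-28781326, plus strand: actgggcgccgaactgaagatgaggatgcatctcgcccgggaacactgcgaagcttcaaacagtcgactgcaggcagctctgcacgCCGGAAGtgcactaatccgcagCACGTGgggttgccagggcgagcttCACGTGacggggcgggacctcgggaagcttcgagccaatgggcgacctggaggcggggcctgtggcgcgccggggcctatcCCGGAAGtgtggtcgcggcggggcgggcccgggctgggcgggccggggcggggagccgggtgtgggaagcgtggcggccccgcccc
Eif4g1, chr16:20672477-20672776, plus strand: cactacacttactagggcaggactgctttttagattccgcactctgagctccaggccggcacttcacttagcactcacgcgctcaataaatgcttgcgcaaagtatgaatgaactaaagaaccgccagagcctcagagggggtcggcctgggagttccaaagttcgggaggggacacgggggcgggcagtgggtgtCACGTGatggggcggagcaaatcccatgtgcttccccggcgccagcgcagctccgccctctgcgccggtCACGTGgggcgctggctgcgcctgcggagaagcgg
Eif4g3, chr4:137993205-137993504, plus strand, the first of 2 entries: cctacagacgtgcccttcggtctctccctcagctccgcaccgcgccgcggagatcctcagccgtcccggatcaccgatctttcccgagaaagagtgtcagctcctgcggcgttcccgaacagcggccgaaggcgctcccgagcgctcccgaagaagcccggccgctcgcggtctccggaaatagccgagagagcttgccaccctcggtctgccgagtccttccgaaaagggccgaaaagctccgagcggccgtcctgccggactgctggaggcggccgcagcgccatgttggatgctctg
The windows of Eif2s1, Eif2s2 and Eif4g3 held neither motif. Eif1ad held CCGGAAG at 2 places, Eif4g1 held CACGTG at 2 places, and Eif5a2 held 2 of each.

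Windows were found for 41 of the 53 genes, 14 of them among those that rose, and both strands were searched. CACGTG, which reads the same on both strands, was present in 10 of the 41 (24.4%), against 8.09% of 27025 genes with a window. CCGGAAG was present in 16 of the 41 (39%), against 9.93% of all genes, and no end of either motif matches the start of the other, so their matches do not overlap. Of the 14 that rose 4 held CACGTG and 7 held CCGGAAG. TGATGNAA, the core of the element bound by ATF4 and its partners, was present in 1 of the 41 (2.44%, Eif2s3x, which held neither other motif) against 4.51% of all genes. The comparison took every gene with a window, whether or not it was expressed here. The shares are thus not matched for expression, and whether they are particular to these genes was not tested. A match is a run of letters, and no binding was measured here. Genes without a window in the table were Eif1a, Eif2b3, Eif3e, Eif3h, Eif3i, Eif3j2, Eif4e1b, Eif4e3, Eif4ebp1, Eif4ebp3, Eif4g2 and Eif6.

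The largest rise among the members was that of Eif4ebp1 (ENSMUSG00000031490, mm10 chr8:27260329-27276674, 2196 exon bases), which encodes 4E-BP1, the repressor that competes with eIF4G for eIF4E. Eif4ebp1 stood at 52.8, 106 and 98.4 CPM in the knockouts 423, 476 and 477, against 10.6, 9.46 and 12.3 CPM in the controls 482, 483 and 486. The lowest knockout was far above the highest control, and knockout 423 was lower than the other knockouts. It rose by 2.99 on the log2 scale (SE 0.29, adjusted p = 0.000143), with a mean of 85.8 ± 28.8 CPM in knockouts and 10.8 ± 1.41 CPM in controls (SD, n = 3 each). The value was 2.79 with each library's trend in exon length and GC content removed and 2.52 with library size alone. The paralogue Eif4ebp2 did not follow: it had 105, 98.5 and 71.6 CPM in knockouts, against 100, 103 and 82.0 CPM in controls (log2 fold change -0.05, adjusted p = 0.871), with overlapping groups. That value changed sign with the trend removed (0.28). Eif4ebp3, the third paralogue, was at 1.15 to 3.76 CPM in knockouts and 1.05 to 2.80 CPM in controls and did not pass. Eif4enif1, which encodes the eIF4E transporter that moves eIF4E into the nucleus and into P-bodies, had 20.0, 21.3 and 15.9 CPM in knockouts against 35.9, 27.0 and 21.8 CPM in controls. Every knockout was below every control, but it did not pass (-0.57, adjusted p = 0.0853). Eif4enif1 fell with library size alone (-1.01, adjusted p = 0.0291), where 30.3% of all genes fell, and was -0.28 with the length and GC trend removed.

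eIF2 itself is a trimer, and the genes of its alpha and beta subunits rose. Eif2s2 (ENSMUSG00000074656, mm10 chr2:154871410-154892935), which encodes the beta subunit that contacts eIF5 and eIF2B, stood at 141, 106 and 131 CPM in the knockouts 423, 476 and 477, against 28.5, 33.1 and 44.1 CPM in the controls 482, 483 and 486. Its groups were far apart, and the gene rose by 1.84 on the log2 scale (SE 0.23, adjusted p = 0.000582). Eif2s1 (ENSMUSG00000021116, mm10 chr12:78861819-78887010), which encodes the alpha subunit that the stress kinases phosphorylate, stood at 112, 80.3 and 120 CPM in knockouts against 25.8, 25.7 and 48.6 CPM in controls. Control 486 was the highest control and still below every knockout (1.64, SE 0.29, adjusted p = 0.00328). Eif2s3x, the X-linked gene of the gamma subunit that binds GTP and the initiator tRNA, stood at 12.5, 10.3 and 10.6 CPM in knockouts against 8.01, 5.50 and 9.28 CPM in controls. These groups did not overlap either, but the gene did not pass (0.55, adjusted p = 0.115). Its near-identical Y-linked paralogue was left out, and reads that match both make its counts uncertain. Per kb of exon, expression was 21.0 CPM for Eif2s1, 18.6 for Eif2s2 and 2.93 for Eif2s3x in knockouts, against 6.74, 5.21 and 1.99 in controls.

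The genes grouped here with eIF2 as alternative carriers of the initiator tRNA, Eif2d and Eif2a, rose. Eif2d, which encodes eIF2D (ligatin), had a log2 fold change of 0.75 (adjusted p = 0.0288) with means of 37.9 CPM in knockouts and 22.5 CPM in controls. Eif2a encodes the single-chain factor eIF2A, which is distinct from the alpha subunit of eIF2. Its expression was 69.1, 70.2 and 55.8 CPM in knockouts against 32.1, 30.7 and 53.2 CPM in controls, and knockout 477 was barely above control 486. Eif2a was among the members nearest the threshold on its inner side (0.75, adjusted p = 0.0399).

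eIF2B exchanges GDP for GTP on eIF2, and 2 of its 5 subunit genes rose, against 17.3% of all genes tested. Eif2b4, which encodes the regulatory delta subunit, averaged 21.3 ± 1.22 CPM in knockouts and 12.8 ± 3.04 CPM in controls (SD, n = 3 each; log2 fold change 0.73, adjusted p = 0.0308). Eif2b3, which encodes the gamma subunit of the catalytic pair, was of low abundance at 4.60, 2.33 and 1.73 CPM in knockouts and 1.26, 0.810 and 1.31 CPM in controls (1.35, adjusted p = 0.0390). Knockout 423 was the highest. Eif2b1, Eif2b2 and Eif2b5 had log2 fold changes of 0.54, 0.48 and 0.08 and did not pass. Eif2b5, the gene of the catalytic epsilon subunit, averaged 31.2 CPM in knockouts and 29.4 CPM in controls.

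The kinases of the eIF2 alpha subunit did not pass, and their values were on the negative side. Eif2ak1, the gene of the haem-regulated kinase HRI, stood at 54.6, 61.1 and 60.7 CPM in knockouts against 76.4, 90.1 and 74.7 CPM in controls (log2 fold change -0.45, adjusted p = 0.0812). Each knockout was below each control, and it was among the 3 members nearest the threshold on its outer side. Eif2ak3, the gene of the endoplasmic reticulum stress kinase PERK, had -0.37, and Eif2ak4, the gene of the amino acid sensing kinase GCN2, had -0.20 at a mean of 1.44 CPM in knockouts and 1.67 CPM in controls. With the length and GC trend removed the 3 values were -0.21, -0.05 and 0.18. With library size alone Eif2ak1 and Eif2ak3 fell.

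In the group of eIF1 and eIF1A, which open the small subunit for scanning and guard start codon choice, 2 of 5 genes rose. Of all genes tested 17.3% rose. Eif1ad (ENSMUSG00000024841, mm10 chr19:5366741-5371526) encodes a protein with an eIF1A-like domain that is known in human cells for late maturation of the small subunit. It stood at 132, 142 and 171 CPM in the knockouts 423, 476 and 477 against 66.4, 61.7 and 79.5 CPM in the controls 482, 483 and 486 (1.10, SE 0.21, adjusted p = 0.00403). Eif1a stood at 88.3, 83.3 and 119 CPM in knockouts against 35.9, 51.3 and 55.0 CPM in controls (1.03, SE 0.24, adjusted p = 0.0099). Neither gene's groups overlapped. Eif1ax, the X-linked gene of nearly the same eIF1A protein, averaged 69.5 ± 23.7 CPM in knockouts and 39.7 ± 16.9 CPM in controls (SD, n = 3 each) and did not pass (0.81, adjusted p = 0.0870). Eif1, the gene of eIF1 itself, had 164, 202 and 180 CPM in knockouts, against 178, 191 and 226 CPM in controls. Its paralogue Eif1b had 12.5, 12.7 and 17.1 CPM in knockouts, against 11.5, 11.8 and 15.2 CPM in controls. The groups overlapped for both (-0.12 with adjusted p = 0.659, and 0.14 with adjusted p = 0.665), and the value of Eif1b changed sign with the length and GC trend removed (-0.32). Eif1 fell with library size alone (-0.56, adjusted p = 0.0405), where 30.3% of all genes fell.

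**Figure D2:**
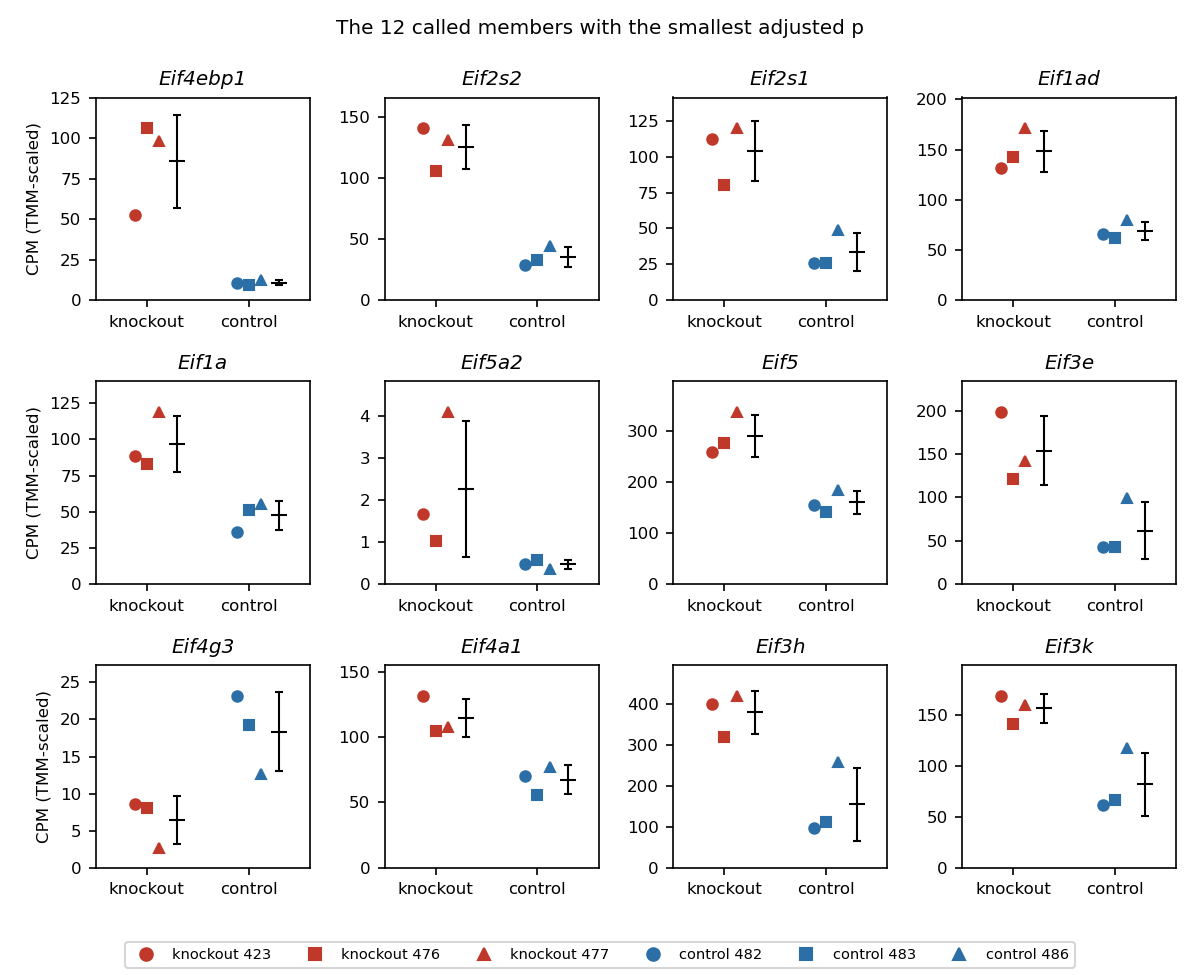
Expression (CPM, TMM-scaled, linear axes from 0) of the 12 called members with the smallest adjusted p, 1 point per library, with the mean and SD of each genotype beside the points. In each panel the 3 knockouts lie on one side of the 3 controls, and Eif4g3 is the panel in which the knockouts are lower.

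eIF3 is the large scaffold that links the small subunit to eIF4G, and all 14 of its subunit genes had positive log2 fold changes, from 0.23 to 1.32 (9 of 14 with library size alone, and all but Eif3j2, at -0.018, with the length and GC trend removed). Of these 6 rose, against 17.3% of all genes tested, and 8 did not pass. Eif3e (ENSMUSG00000022336) stood at 198, 121 and 142 CPM in the knockouts 423, 476 and 477 against 43.2, 42.2 and 99.3 CPM in the controls 482, 483 and 486 (1.32, SE 0.36, adjusted p = 0.0186). Eif3h (ENSMUSG00000022312), whose protein belongs with eIF3e to the core of MPN and PCI domain subunits, stood at 401, 321 and 421 CPM against 96.4, 112 and 258 CPM (1.29, SE 0.36, adjusted p = 0.0222). Eif3k (ENSMUSG00000053565) stood at 169, 141 and 160 CPM in knockouts against 61.3, 66.7 and 117 CPM in controls (0.94, SE 0.27, adjusted p = 0.0245). In all 3 genes the groups were apart, with control 486 well above the other controls. Eif3i, which encodes a WD40-repeat subunit of the eIF3b, eIF3g and eIF3i module, rose by 1.23 (adjusted p = 0.0295), and its partners Eif3b and Eif3g, at 0.35 and 0.42, did not pass. Eif3m rose as well (1.19, adjusted p = 0.0275), as did Eif3d (0.74, adjusted p = 0.0375), whose protein can itself bind the cap of certain mRNAs in human cells.

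The remaining subunit genes were Eif3l (0.56), Eif3a (0.46), Eif3c (0.35), Eif3j2 (0.31), Eif3j1 (0.23) and Eif3f (0.23). Eif3a, the gene of the largest core subunit, had 8731 exon bases and rose once the length and GC trend was removed (0.78, adjusted p = 0.0216). Summed over the 14 genes, expression was 1856, 1375 and 1510 CPM in knockouts, against 718, 666 and 1218 CPM in controls. The lowest knockout was thus closer to control 486 than to the other controls. Without knockout 423, control 482 or control 483 edgeR called none of the 14 (6, 6 and 5 had an unadjusted p under 0.05). Of all genes tested 12.2%, 9.98% and 9.91% rose there. Of the 14, 1 was called without knockout 477, 6 were without knockout 476 and 8 without control 486. The shares of all genes that rose were then 10.3%, 15% and 19.3%. Each of the 14 values was positive in all 6 of those fits. With library size alone none was called (3 had an unadjusted p under 0.05) and 5 of 14 values were negative, where 7.54% of all genes rose.

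**Figure D3:**
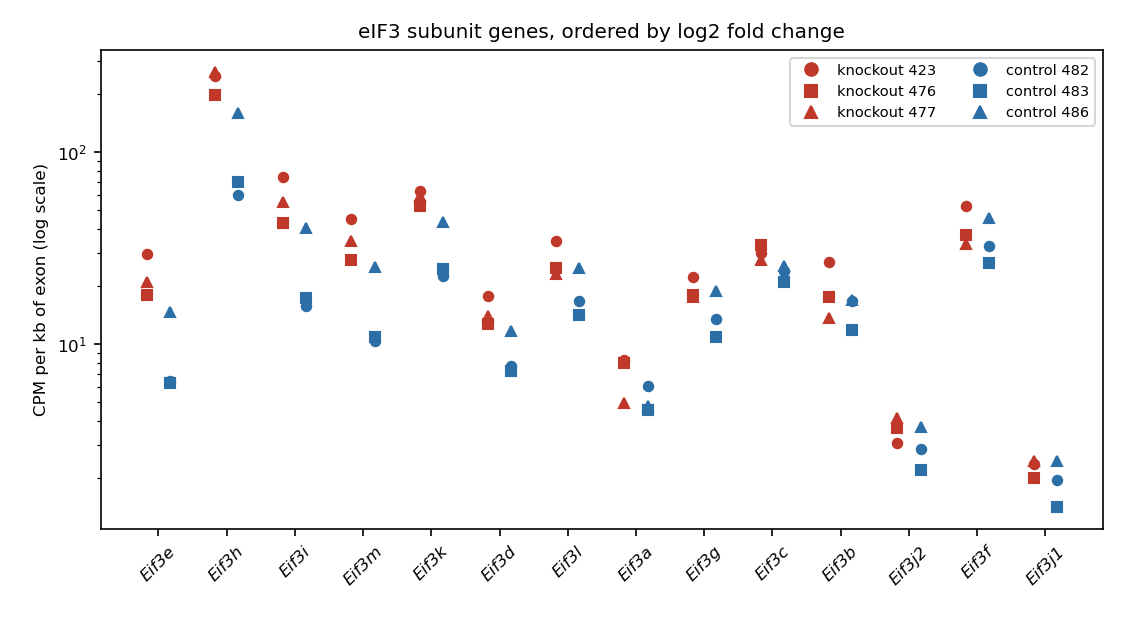
Expression of the 14 eIF3 subunit genes in CPM per kb of exon on a log axis, 1 point per library, genes ordered from the largest to the smallest log2 fold change. The knockouts lie above the controls 482 and 483 at the left, control 486 lies between, and the points of both genotypes mix at the right.

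In the cap-binding complex eIF4F and its helicase cofactors 2 of 11 genes rose, 2 fell and 7 did not pass, shares near the 17.3% and 18.3% of all genes tested. With the length trend alone removed 5 rose and 1 fell, where 15.8% and 15.5% of all genes did. Eif4a2 (0.73, adjusted p = 0.0396), Eif4e (0.79, adjusted p = 0.0442) and Eif4g2 (0.72, adjusted p = 0.0437) were called in that setting. With length and GC removed these genes were not called, and 2 of the 11 rose and 1 fell. Eif4a1, which encodes the main eIF4A helicase, stood at 132, 105 and 108 CPM in the knockouts 423, 476 and 477 against 70.0, 55.5 and 76.9 CPM in the controls 482, 483 and 486 (0.77, SE 0.21, adjusted p = 0.0193). The pseudogene Eif4a-ps4 held 39398 counts over all libraries against 17576 for Eif4a1, and it too rose (1.10, SE 0.24, adjusted p = 0.00798). Reads of near-identical copies may have been divided between the pair, so the level of Eif4a1 is uncertain. The paralogue Eif4a2 stood at 310, 325 and 374 CPM in knockouts against 190, 252 and 274 CPM in controls. Its groups did not overlap, but it did not pass (0.50, adjusted p = 0.110). Eif4a3, the helicase gene of the exon junction complex, had 0.34, and the cofactor genes Eif4b and Eif4h had -0.23 and -0.07. None of these 3 passed.

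Of the cap-binding genes, Eif4e, which encodes eIF4E itself, had 59.8, 44.4 and 56.4 CPM in knockouts, against 31.7, 31.4 and 48.8 CPM in controls. Knockout 476 was below control 486, and the gene did not pass (0.52, adjusted p = 0.106). Eif4e2 encodes 4EHP, a cap-binding protein that does not bind eIF4G and is known as a translational repressor. It stood at 119, 98.9 and 124 CPM in knockouts against 58.4, 64.2 and 92.7 CPM in controls and was the member nearest the threshold on its inner side (0.66, adjusted p = 0.0472). Eif4e3, the gene of an atypical and scarce cap-binding protein, fell to 4.09, 3.79 and 4.08 CPM in knockouts, against 6.68, 8.58 and 6.39 CPM in controls (-0.85, SE 0.25, adjusted p = 0.0271). The groups were apart, and it was -1.06 (adjusted p = 0.00943) with the length and GC trend removed. All 6 fits that left out a library gave Eif4e3 a negative value, and 1 of them called it.

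Of the eIF4G scaffold genes 1 of 3 was called, against 35.6% of all genes tested in either direction. Eif4g3 (ENSMUSG00000028760, mm10 chr4:137993022-138208508), the gene of eIF4GII, fell to 8.58, 8.08 and 2.70 CPM in knockouts, against 23.2, 19.3 and 12.6 CPM in controls (-1.50, SE 0.40, adjusted p = 0.0191). The groups were apart, with knockout 477 lowest. Eif4g3 has 11063 exon bases, the most of any member, and with the length and GC trend removed it was no longer called (-0.93, adjusted p = 0.0614), nor was it without control 482 (-1.30, adjusted p = 0.0569). Eif4g1, the gene of the main scaffold, had 135, 177 and 98.1 CPM in knockouts, against 262, 209 and 159 CPM in controls (-0.62, adjusted p = 0.106), and knockout 476 was above control 486. Its value was -0.13 with the trend removed, and with library size alone it fell (-1.06, adjusted p = 0.0301), where 30.3% of all genes fell. Eif4g2 encodes DAP5, which lacks the eIF4E-binding region and serves cap-independent initiation. It stood at 569, 616 and 615 CPM in knockouts against 469, 450 and 560 CPM in controls, groups that do not overlap though the gene did not pass (0.28, adjusted p = 0.323), and its value was -0.16 with library size alone.

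The last group acts at start codon recognition, subunit joining and beyond. Eif5 (ENSMUSG00000021282), whose protein makes eIF2 hydrolyse its GTP, stood at 258, 276 and 337 CPM in the knockouts 423, 476 and 477 against 154, 141 and 184 CPM in the controls 482, 483 and 486 (0.86, SE 0.22, adjusted p = 0.0147). Eif5a encodes eIF5A, the hypusine-bearing factor of elongation and termination, and stood at 538, 343 and 402 CPM in knockouts against 210, 206 and 320 CPM in controls. Knockout 476 was close to control 486, the gene was near the threshold (0.80, adjusted p = 0.0432), and it was not called with the length and GC trend removed (adjusted p = 0.0518). Eif5a2 (ENSMUSG00000050192), its scarce paralogue, stood at 1.66, 1.03 and 4.08 CPM in knockouts against 0.464, 0.574 and 0.352 CPM in controls. The groups were apart, but knockout 477 carried much of the change (2.27, SE 0.56, adjusted p = 0.0135), and without it the gene did not pass (1.55, adjusted p = 0.0578). Eif6, whose protein keeps the large subunit from joining too early, stood at 392, 503 and 534 CPM in knockouts against 261, 293 and 385 CPM in controls. It was the nearest member outside the threshold (0.60, adjusted p = 0.0770). Eif5b, the gene of the GTPase of subunit joining, had 0.21 and did not pass.

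Of the 22 members called with all libraries, 5 were called under each of the 10 alternative settings and with each library left out in turn: Eif4ebp1, Eif2s2, Eif2s1, Eif1ad and Eif1a. The other 17 lost the call when certain libraries were left out, Eif4g3 and Eif5a2 as given with their values. Eif5 was not called without knockout 477 (0.75, adjusted p = 0.0609) or control 483 (0.77, adjusted p = 0.0721). Eif3e and Eif4a1 were not called without knockout 423 or without control 482 or 483, at values of 1.11 or more for Eif3e and 0.64 or more for Eif4a1. Eif2d was lost without knockout 477, control 482 or control 483 (lowest value 0.59). Eif3d, Eif3h, Eif3i, Eif3k, Eif3m and Eif5a were lost without knockout 423, knockout 477, control 482 or control 483, with lowest values of 0.61, 1.03, 0.99, 0.76, 0.97 and 0.63. Eif2b4 was lost without knockout 476, knockout 477, control 482 or control 483 (lowest value 0.56). Eif2a and Eif4e2 were called without control 486 and in no other fit of 5 libraries (lowest values 0.60 and 0.53), as was Eif4e3 (-0.93 to -0.72), and Eif2b3 was called without knockout 477 and in no other (lowest value 0.87).

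Long genes read lower in the knockouts across the whole table, so the members' values were also taken with that trend removed. Over 15018 genes with a length the rank correlation between log2 fold change and exon bases was -0.375, and the median log2 fold change went with length from 0.962 in the shortest of 10 equal bins of genes (median 459 bases) to -0.555 in the longest (median 11553 bases). Per doubling of exon length, log2 CPM changed by -0.158, -0.0728 and -0.196 in the knockouts 423, 476 and 477 and by 0.235, 0.172 and 0.0200 in the controls 482, 483 and 486. The initiation factor genes were somewhat longer than other genes, with a median of 4401 exon bases against 3683.5, and among their 52 values the rank correlation with length was -0.102, a description over genes that share the same 6 libraries. Among the 14 eIF3 genes it was 0.0154. Removing the trend with length alone raised the members' median to 0.65, and 23 rose and 1 fell, against 15.8% and 15.5% of all genes. Removing length and GC content together gave a median of 0.57 (0.02 over all genes), with 20 that rose and 1 that fell, against 15.7% and 15% of all genes. Of the 20 genes that rose 19 did so with the length and GC trend removed, the exception being Eif5a. Values with that trend removed were 1.97 for Eif2s2 (6755 exon bases), 1.66 for Eif2s1 (4951), 1.04 for Eif1ad (2792) and 0.98 for Eif1a (4168). They were 1.50 for Eif3e (6719), 1.00 for Eif3h (1612), 1.06 for Eif5 (6820) and 2.30 for Eif5a2 (5027).

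**Figure D4:**
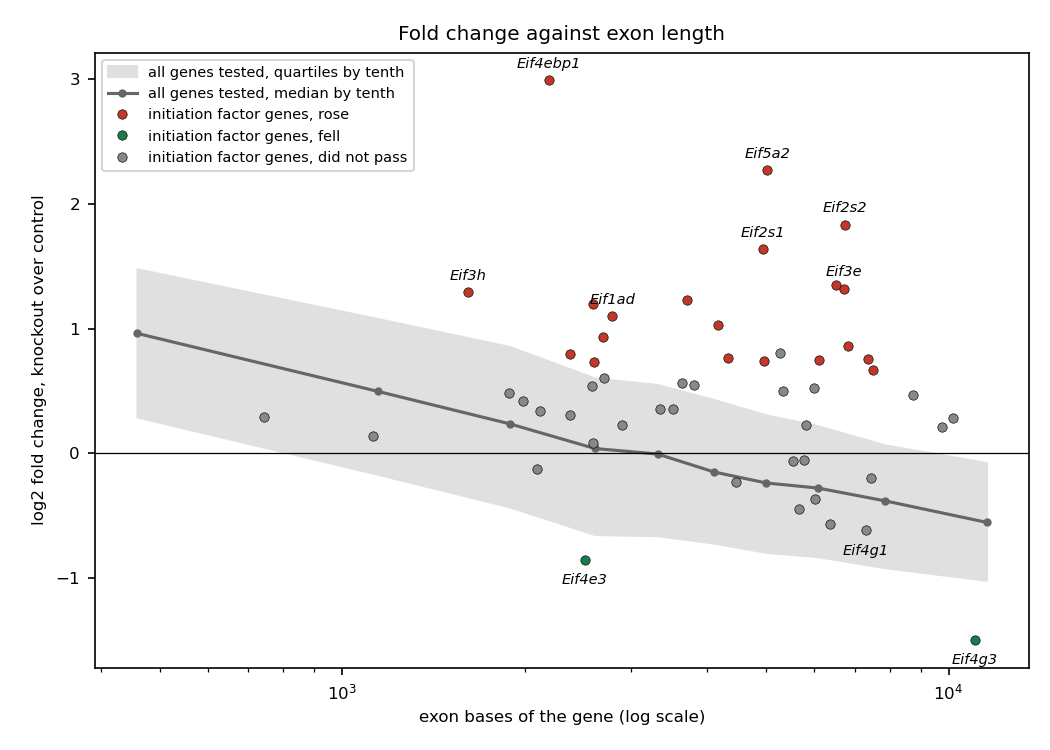
Log2 fold change, knockout over control, against exon bases of the gene on a log axis, with initiation factor genes as points and all genes tested as the median (line) and quartiles (band) of 10 bins by length. The band falls with length, and Eif2s1, Eif2s2, Eif3e and Eif5a2 lie well above it at 4951 to 6755 exon bases.

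A ratio between 2 members within a library does not depend on scaling between libraries, and 8 such ratios were compared, each as CPM per kb of exon. Division by exon bases leaves each library's trend with exon length in place, so a ratio between genes of unlike length carries it. Eif4ebp2 has 5784 exon bases and Eif4ebp1 2196, and their log2 fold changes with the length and GC trend removed were 0.28 and 2.79. With 3 libraries against 3 the smallest p an exact two-sided permutation test allows is 0.1, so no ratio could pass 0.05. A ratio shows unequal change without saying which gene moved. The ratio of Eif4ebp1 to Eif4e was 2.42, 6.54 and 4.77 in the knockouts 423, 476 and 477, against 0.916, 0.827 and 0.690 in the controls 482, 483 and 486 (mean difference of log2 ratios 2.39, exact permutation p = 0.1, adjusted p = 0.16 over the 8 ratios). Per kb of exon the repressor mRNA was thus below that of its target in every control and above it in every knockout, whereas in CPM without division by exon bases knockout 423 had 52.8 for Eif4ebp1 and 59.8 for Eif4e. Eif4ebp2 to Eif4ebp1 was 0.758, 0.352 and 0.276 in knockouts against 3.59, 4.11 and 2.53 in controls (-3.00, exact p = 0.1), so that per kb of exon the more abundant of the paralogues differed between the genotypes. In CPM without that division knockout 423 had more Eif4ebp2 (105) than Eif4ebp1 (52.8). Knockouts 476 and 477 had less, at 98.5 and 71.6 for Eif4ebp2 against 106 and 98.4 for Eif4ebp1. Eif4e3 to Eif4e (-1.36), Eif4g3 to Eif4g1 (-0.98) and Eif5a2 to Eif5a (1.19) were also apart in all libraries, each at an exact p of 0.1 and an adjusted p of 0.16. Overlapping groups were found for Eif4g2 to Eif4g1 (0.92, exact p = 0.2), Eif1b to Eif1 (0.26, exact p = 0.3) and Eif4a2 to Eif4a1 (-0.26, exact p = 0.4).

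**Figure D5:**
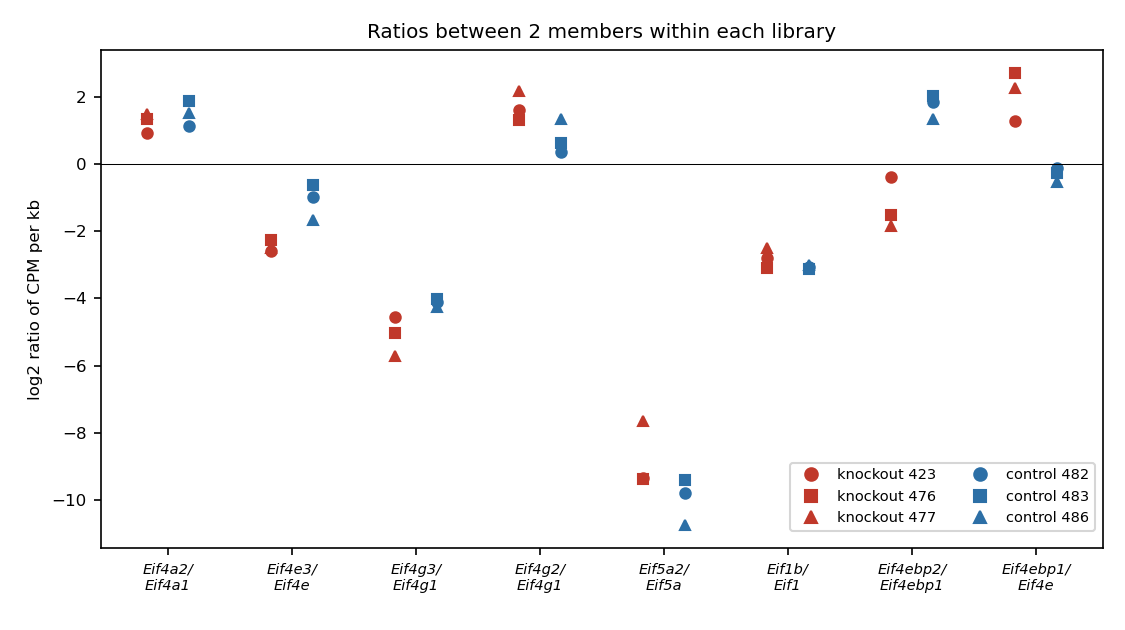
Log2 ratio of CPM per kb of exon between pairs of members, 1 point per library, knockouts left of controls in each pair. For Eif4ebp1 over Eif4e the knockouts lie above 0 and the controls below, and for Eif4ebp2 over Eif4ebp1 the order is the opposite.

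By level per kb of exon the same 3 members stood at the top in both genotypes, in a different order. Eif3h, Eif5a and Eif6 were highest in knockouts, at 236, 180 and 176 CPM per kb, and they stood at 96.5, 103 and 116 CPM per kb in controls, where Eif1 was at 94.5. At the bottom were Eif2ak4 (0.194 in knockouts and 0.224 in controls), Eif2b3 (0.442 and 0.173) and Eif5a2 (0.449 and 0.0921).

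Exons of 15 members overlap another coding, antisense or unclassified gene, and the labels do not say whether the counting used strand, so reads in the shared stretches cannot be assigned to one gene with certainty. Eif1ad shares 428 bases with Banf1, Eif2a shares 72 with Serp1, Eif2b4 shares 204 with Snx17, Eif2d shares 78 with Rassf5, Eif3m shares 82 with Ccdc73 and Eif3d shares 2151 with the antisense gene Gm17638. Over all libraries Serp1 had 79118 counts against 10145 for Eif2a, Snx17 had 16166 against 3293 for Eif2b4 and Banf1 had 21809 against 19941 for Eif1ad. The partners of Eif2d, Eif3m and Eif3d had 481, 94 and 68 counts, against 5710, 12366 and 11455 for the members. Eif4ebp3 and Eif4e3 overlap a coding gene on the same strand, where use of strand would not tell the reads apart. Eif4ebp3 shares 501 of its 744 exon bases with AC115631.1, which had 196 counts against 373 for Eif4ebp3. Eif4e3 shares 373 bases with Gm20696, which had 1 count against 1196 for Eif4e3.

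Other genes of the translation machinery were read in the same fit, as 4 lists. Of 24 initiation partners without an Eif name 3 rose and 5 fell, against 17.3% and 18.3% of all genes tested, with a median log2 fold change of -0.12. Bzw1, which encodes a mimic of eIF5, rose by 1.63 (adjusted p = 0.00302) and Abce1, the gene of the ribosome recycling ATPase, by 1.22 (adjusted p = 0.0117). Cyfip1, whose protein represses initiation through eIF4E, fell by 0.96 and Dhx36, a helicase gene, fell by 0.92. Neither was called with the trend in length alone removed, and with length and GC removed Dhx36 fell (-0.55, adjusted p = 0.0274) and Cyfip1 was not called (-0.47, adjusted p = 0.0715). Without knockout 477 2 partners fell, where 11% of all genes fell. Without knockout 476 or without control 482 3 fell, where 15.2% and 11.8% of all genes fell. Of 17 genes of mTORC1 and MNK signalling to initiation 2 rose, Rheb (0.86), the activating GTPase gene, and Ddit4 (0.85), the gene of the inhibitor REDD1. In the same list 2 fell, Mknk1 (-0.98), the gene of an eIF4E kinase, and Rps6ka3 (-0.62), and the list's median was -0.22. Both counts, of 17 genes, are smaller shares than the 17.3% and 18.3% of all genes tested. No gene of it rose without knockout 477 or control 483, where 10.3% and 9.91% of all genes rose. None fell without knockout 423, knockout 477 or control 482, where 13.2%, 11% and 11.8% of all genes fell. Without control 486 4 fell, where 19.5% of all genes fell. With the length and GC trend removed 6 of the 17 rose and 1 fell, where 15.7% of all genes rose and 15% fell.

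Of 14 elongation and termination genes tested 6 rose and 1 fell, against 17.3% and 18.3% of all genes tested, with a median of 0.84. Eef2k, which encodes the kinase that inhibits elongation factor eEF2, fell to 7.82, 6.88 and 6.56 CPM in knockouts, against 48.2, 25.1 and 32.9 CPM in controls (-2.32, adjusted p = 0.000357). Eef1e1, counted in this list by its name alone, rose by 2.28. Eefsec (1.78), the gene of the selenocysteine elongation factor, and Dohh (1.41), the gene of the second enzyme of hypusine synthesis on eIF5A, rose as well. Dhps, the gene of the first enzyme of that pathway, chosen here after its value was seen, rose by 0.93 (adjusted p = 0.0105). Of 22 cytosolic aminoacyl-tRNA synthetase genes and their scaffolds 12 rose and none fell, with a median of 0.72, and 13 had an unadjusted p under 0.05. Mars, the methionyl-tRNA synthetase gene, stood at 34.4, 30.7 and 34.3 CPM in knockouts against 11.4, 8.98 and 12.1 CPM in controls (1.61, adjusted p = 0.000542). Gars (1.48), Rars (1.40) and Sars (1.05) came next by adjusted p. Of the synthetase list 7 rose without knockout 423, 6 without knockout 477, 5 without control 482 and 4 without control 483, where 12.2%, 10.3%, 9.98% and 9.91% of all genes rose.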

How the data were processed

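RNA-seq of 6 libraries, 3 knockout and 3 control, was deposited as a gene count table and as variance-stabilised log2 values made by the authors. The files were made with mm10, STAR 2.7.9a, fastp 0.21.0, Subread 1.6.2 and its featureCounts, DESeq2 1.23.10, FastQC 0.11.7 and bcl2fastq, per the submitters' processing notes. Annotation release and strand setting: not given in the sources used here. Total counts were between 23476031 and 46835165 per library.

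Gene identifiers were matched to GENCODE M21 (55190 of 55450), which gave symbols, exon bases, GC content and coordinates. The deposited counts were tested with edgeR 4.0.16 (R 4.3.3; filterByExpr, TMM, robust quasi-likelihood fit, Benjamini-Hochberg over 15028 genes, threshold 0.05). The code was tested on simulated data. Standard errors belong to the log2 fold change, knockout over control. Alternatives were library-size and median-of-ratios scaling, the 20 most abundant genes left out, no filter, a mean of at least 2 CPM, DESeq2 1.42.0, limma 3.58.1 (voom, and trend on the deposited log2 values), removal of each library's spline trend (mgcv 1.9.3) with exon length or with length and GC content, and each library left out. The members and lists were chosen with earlier results of these data known. Named are all called members, both genes of each ratio, and up to 4 called genes per other list with the smallest adjusted p; library values are given for the 12 smallest adjusted p, the ratios, the eIF2 subunits and the 3 members nearest the threshold on either side. The labels give each library a number but do not say outright that each is a separate animal, so p-values measure the spread between these libraries, which differed by far more than counting error (chi-square per degree of freedom 71.3 to 191).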

Additional observations from a re-analysis of the deposited data

How the results depend on the processing

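Scaling by median of ratios, leaving out the 20 most abundant genes, no filter on low counts, limma-voom and limma on variance-stabilised values each gave 20 initiation factor genes that rose and 2 that fell, DESeq2 gave 22 and 2, and a mean of at least 2 CPM gave 19 and 2. The shares of all genes differed more. With no filter 10.3% of all genes rose and 12.8% fell, and with DESeq2 20.1% rose and 19.7% fell. At a mean of at least 2 CPM 19.7% of all genes rose and 20.4% fell. With median of ratios, the 20 genes left out and both limma fits 17.6% to 18.1% of all genes rose and 17.6% to 18.8% fell. With library size alone 6 initiation factor genes rose (11.5%, against 7.54% of all genes) and 7 fell (13.5% against 30.3%), and their median log2 fold change was 0.078. With the length trend removed, and with the length and GC trend removed, 1 fell (1.92%, against 15.5% and 15% of all genes). With each library left out in turn, 6 to 25 rose (11.5% to 48.1%, against 9.91% to 19.3% of all genes), 0 to 4 fell (0% to 7.69%, against 11% to 19.5%) and the median was 0.39 to 0.73. With library size alone 1 initiation partner rose and 8 fell, 0 genes of mTORC1 and MNK signalling rose and 6 fell, 3 elongation genes rose and 2 fell, and 4 synthetase genes rose and 1 fell. With the length trend removed 1 partner and 1 mTORC1 gene fell, where 15.5% of all genes fell. With the length and GC trend removed 2 partners fell, while 6 mTORC1 genes rose and 1 fell. In that setting 15.7% of all genes rose and 15% fell. With each library left out, 2 to 6 partners fell, 0 to 2 mTORC1 genes rose and 0 to 4 fell, and 4 to 12 synthetase genes rose. The cause of these shifts was not tested.

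Values changed sign in at least 1 setting for 14 members, 0 of them called with TMM scaling and all libraries. With library size alone this held for Eif1b (-0.32), Eif2b5 (-0.34), Eif3b (-0.050), Eif3c (-0.080), Eif3f (-0.17), Eif3j1 (-0.21), Eif3j2 (-0.15), Eif4a3 (-0.090), Eif4ebp3 (-0.13), Eif4g2 (-0.16) and Eif5b (-0.21). With the length trend removed, and with length and GC removed, it held for Eif1b (-0.35 and -0.32), Eif2ak4 (0.18 and 0.18), Eif4ebp2 (0.22 and 0.28), Eif4ebp3 (-0.36 and -0.31) and Eif4h (0.19 and 0.26), and with length and GC removed for Eif3j2 (-0.018). With a library left out the ranges that cross 0 were -0.013 to 0.28 for Eif1b, -0.49 to 0.37 for Eif2ak4, -0.040 to 0.28 for Eif2b5, -0.15 to 0.11 for Eif4ebp2, -0.44 to 0.80 for Eif4ebp3 and -0.12 to 0.063 for Eif4h. No paired analysis was possible because knockouts and controls have no number in common.

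With 3 libraries a genotype, a gene that did not pass is not shown to be alike in both. Eif5a2, Eif2b3, Eif2ak4 and Eif4ebp3 averaged under 3 CPM in both genotypes, and their values rest on the fewest counts.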
